A study of Mus musculus with 2 samples.

Results

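The cells described here are iMPC cells that carried messages of both myogenic differentiation and cell division. They were chosen by a rule on raw counts of unique molecular identifiers (UMIs), in which 1 UMI stands for 1 captured RNA molecule. A cell had to hold at least 5 UMIs of Myog and at least 3 of Top2a, with no more than 1 UMI of Pax7 and no more than 1 of Ckm. The rule selected 419 of 9349 kept iMPC cells (4.48%) and of 15362 kept cells in all. The values of these genes in the same cells made the choice, so they describe the members and support nothing.

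The study profiled mouse cells with the 10x Genomics droplet assay, which reads the 3' ends of messages. In the iMPC library, fibroblasts of mouse embryos had been turned into induced myogenic progenitors by a MyoD plus F/R/C treatment and were kept in medium with F/R/C, which the labels do not spell out. The MEF library came from fibroblasts in MEF medium. Both carry the genotype Tg:Pax7-nGFP/C57BL6;DBA2, a Pax7 reporter transgene, so the control shares it. There was 1 library of each. No test between cultures or between cells was therefore made, and the exact 95% intervals given reflect the number of UMIs or cells counted, not variation between cultures.

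Muscle stem cells, the satellite cells, are marked by the transcription factor Pax7. When they are activated they divide as myoblasts that express Myod1 and Myf5. Myogenin, the product of Myog, drives the step from myoblast to fusing muscle cell, a step at which myoblasts usually leave the cell cycle under Cdk inhibitors and the Rb protein. Topoisomerase II alpha, the product of Top2a, untangles chromosomes and is made from S phase to mitosis. Cells with both messages are thus placed, by their markers, between division and differentiation.

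Members were set beside a pair of other iMPC sets. The non-cycling Myog-positive set held 799 cells (8.55% of kept iMPC cells) with at least 5 UMIs of Myog, none of Top2a or Mki67, and the same limits on Pax7 and Ckm. The cycling Pax7-positive set held 994 cells (10.6%) with at least 1 UMI of Pax7, none of Myog and at least 3 of Top2a. Another 269 cells met the Myog, Pax7 and Ckm limits and fell between the sets, with 1 or 2 UMIs of Top2a or some of Mki67, and are called intermediate here. Of the 3122 iMPC cells that reached the Myog minimum, 718 also reached the Top2a minimum, but 211 of these were over the Pax7 limit and 133 were over the Ckm limit. In the MEF library 390 cells reached the Top2a minimum, 6 cells held a Myog UMI and 0 cells reached the Myog minimum, so the fibroblast culture had no member.

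Myog (ENSMUSG00000026459) lies on chromosome 1, 134289989 to 134292548, and Top2a (ENSMUSG00000020914) on chromosome 11, 98992943 to 99024189, on GRCm38 as annotated by GENCODE M21. Members held 5 to 158 Myog UMIs, with a median of 27, and 3 to 65 Top2a UMIs, with a median of 16. The non-cycling set had a median of 36 Myog UMIs and the cycling Pax7-positive set a median of 13 Top2a UMIs. A UMI of Mki67, a proliferation antigen that was not part of the members' rule, was found in 370 members (88.3%, 84.8 to 91.2) and in 93.5% of the cycling Pax7-positive cells. Pax7 was at 0 in 61.6% of members, and Ckm, the muscle creatine kinase of mature fibres, was at 0 in 81.6%.

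**Figure D1:**
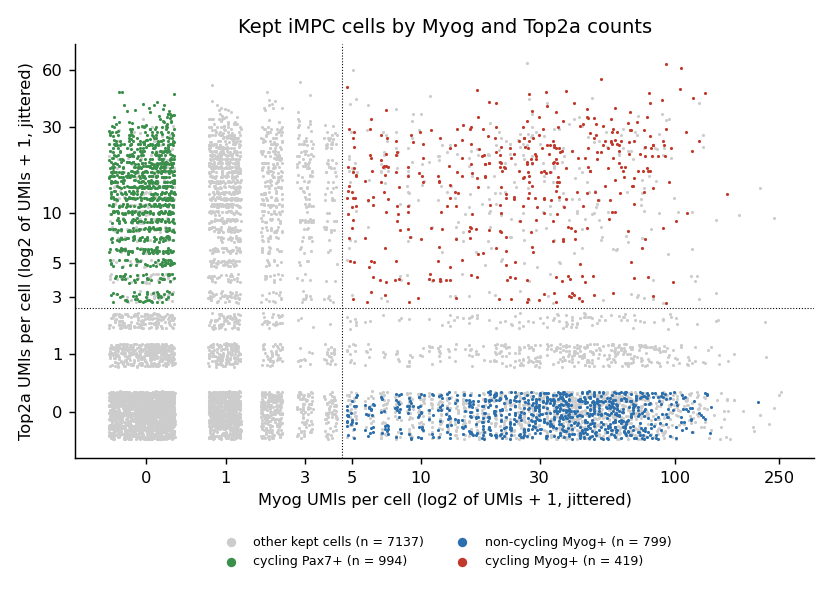
UMIs of Myog (x axis) against UMIs of Top2a (y axis) in each kept iMPC cell, both drawn on a log2(UMIs + 1) scale with small random offsets. The dotted lines mark 5 Myog and 3 Top2a UMIs, and the 419 members (red) fill the range from the Myog line up to 158 Myog UMIs.

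Members were deeper than the cells they were compared with. Their median was 27865 UMIs (8255 to 84940) and 4730 genes, against 21509 UMIs and 3847 genes in non-cycling Myog-positive cells and 23187 UMIs and 4537 genes in cycling Pax7-positive cells. Mitochondrial genes took a median of 3.44%, 4.44% and 3.29% of UMIs in the same order. The Scrublet caller marked 48 members as doublets (11.5%, 8.57 to 14.9), against 2.88% of non-cycling and 2.72% of cycling Pax7-positive cells. Its scores had medians of 0.0441, 0.025 and 0.0429. A droplet with 1 cell of each comparison set can also meet the Myog and Top2a limits, and the part of such droplets in the results was not tested, so the main results are also given without the called cells. Levels were compared as CPM, which scales the UMIs summed over a set to a common total of 1000000, and a ratio is a log2 ratio of such levels.

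The 250 bases before the start of the rule's genes Top2a and Myog, of the proliferation gene Mki67 and of the Notch ligand gene Dll1 are shown to let their letters be compared. The motifs marked differ between them, so the capitals alone cannot be compared. They come from RefSeq on GRCm38.p6. In the windows of Top2a and Mki67, both on the minus strand, capitals mark TTTGAA, the core of the cell cycle homology element of late cycle genes, and CCAAT, the NF-Y box, on either strand. In that of Myog, on the plus strand, they mark the E-boxes (CANNTG) and 1 exact form of the A/T-rich MEF2 motif. In that of Dll1, the upstream one of its windows and on the minus strand, they mark CAGCTG, which is 1 form of CANNTG and favoured by MyoD and myogenin, and TTTGAA. Each match describes letters only, not a bound site.
Top2a, chr11:99024190-99024439: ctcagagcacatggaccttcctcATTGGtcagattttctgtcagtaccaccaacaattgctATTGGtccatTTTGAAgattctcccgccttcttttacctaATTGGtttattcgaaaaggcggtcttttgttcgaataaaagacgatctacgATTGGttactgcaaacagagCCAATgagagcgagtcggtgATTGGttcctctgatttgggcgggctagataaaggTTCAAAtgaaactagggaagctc
Mki67, chr7:135716380-135716629: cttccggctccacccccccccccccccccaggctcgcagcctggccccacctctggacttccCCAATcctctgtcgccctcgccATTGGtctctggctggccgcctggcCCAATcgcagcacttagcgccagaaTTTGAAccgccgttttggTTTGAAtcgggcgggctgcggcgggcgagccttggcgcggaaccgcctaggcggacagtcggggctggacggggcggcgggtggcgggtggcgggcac
Myog, chr1:134289754-134290003: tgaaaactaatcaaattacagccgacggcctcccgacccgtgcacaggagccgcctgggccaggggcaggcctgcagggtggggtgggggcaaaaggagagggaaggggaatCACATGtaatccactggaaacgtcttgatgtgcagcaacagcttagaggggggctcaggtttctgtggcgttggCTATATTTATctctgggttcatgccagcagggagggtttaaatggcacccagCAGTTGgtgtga
Dll1, chr17:15376933-15377182: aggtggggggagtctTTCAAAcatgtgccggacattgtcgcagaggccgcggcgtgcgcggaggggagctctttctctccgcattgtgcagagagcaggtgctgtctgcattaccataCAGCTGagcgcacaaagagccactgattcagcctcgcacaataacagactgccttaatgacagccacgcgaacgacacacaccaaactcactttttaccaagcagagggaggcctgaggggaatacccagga

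The Top2a window holds 2 matches of TTTGAA and 6 of CCAAT, and the Mki67 window 2 and 3. The Dll1 window shown holds 1 CAGCTG and 1 TTTGAA. The other Dll1 window holds 0 of both and 2 CCAAT, and the window of Sox8 holds 0 of all 3. Of 32851 such windows over all genes 16% held TTTGAA and 33.8% CCAAT. Of the G2/M genes described next, 37 of 45 had a window, and TTTGAA was in 15 of their 40 windows (37.5%) and CCAAT in 30 (75%). The Myog window holds 2 CANNTG, found in 66.2% of all windows, and 1 MEF2 motif, found in 23 of them (0.07%). The MEF2 motif was searched only as the exact string marked in the Myog window, while CANNTG allows many strings. The low share was thus fixed by that choice. It does not show how often MEF2 motifs occur and does not set Myog apart. The Myog window holds 0 CAGCTG. Unmarked as such, CANNTG also occurs 3 times in the Top2a window and 3 times in the Dll1 window shown, so it does not set Myog apart. CAGCTG was in 13% of all windows, in 15 of 48 windows of sarcomere genes (31.2%) and in 10 of 17 of calcium handling genes (58.8%). High shares were not limited to the muscle and cycle lists. CAGCTG was also in 3 of 7 windows of smooth muscle genes (42.9%) and 5 of 12 of glial and neuron genes (41.7%), and CCAAT in 5 (71.4%) and 8 (66.7%) of them and in 62.2% of those of S phase genes.

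Genes of the cell cycle were read next. Members and cycling Pax7-positive cells were both chosen by at least 3 Top2a UMIs, so the rule favours similar levels of cycle genes in these sets. S phase genes, which copy the DNA, summed to 1822 CPM in members, 358 CPM in non-cycling Myog-positive cells and 2209 CPM in cycling Pax7-positive cells. G2/M genes, which run mitosis, summed to 5380, 307 and 5939 CPM. Against the non-cycling cells all 31 measured S phase genes and all 43 measured G2/M genes were 2-fold or more higher, with median log2 ratios of 2.67 and 4.85. Over all genes in that comparison 579 of 5351 (10.8%) were 2-fold or more higher and 273 (5.1%) lower, and the median ratio was 0.18. A gene counted as measured at 20 CPM or more in the higher set, and the rule's own genes were left out. Top2a and Mki67 set these groups apart, so genes that run with them had to differ here and the counts are a description of the cells chosen.

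Aurkb, the mitotic kinase of the chromosomal passenger complex, stood at 92.0 CPM in members (86.8 to 97.5), at 0.556 CPM in non-cycling Myog-positive cells (0.277 to 0.994) and at 110 CPM in cycling Pax7-positive cells (106 to 115). Its log2 ratio to the non-cycling cells was 7.37 (6.53 to 8.38), the highest among genes of at least 50 CPM. Nusap1, a spindle protein, stood at 100 CPM, 1.01 CPM and 117 CPM, and Aurka, the centrosome kinase, at 93.0, 1.67 and 78.7 CPM. Hist1h1b, a linker histone gene active in S phase, stood at 146, 1.41 and 160 CPM. Fbxo5, Sgo2a, Hist1h2ap, Prc1 and Knl1, genes of chromosome packing, segregation and the control of mitosis, were also among the 10 highest ratios. Among replication genes Clspn, a checkpoint adaptor, stood at 48.5, 1.47 and 63.7 CPM, and Rrm2, the nucleotide reductase subunit, at 114, 9.70 and 109 CPM.

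Against the cycling Pax7-positive cells 0 of 35 measured S phase genes and 0 of 45 G2/M genes passed 2-fold in either direction, beside 246 of 5565 genes (4.42%) that were 2-fold or more higher and 253 (4.55%) lower. The Top2a minimum that chose both sets bears on these counts, and nothing is read from them. The median ratios were -0.26 and -0.22 against -0.06 over all genes. The genes of the 2 lists ranged from -0.87 to 0.19 and from -0.45 to 0.25. In cells of 15000 to 40000 UMIs the medians were -0.12 and -0.11, against -0.045 over all genes. Dtl, which marks the licensing factor Cdt1 for destruction in S phase, was at the lower end, with 23.1 CPM in members and 42.2 CPM in cycling Pax7-positive cells. Ccna2, the cyclin of S and G2, was at the upper end of its list, with 123 and 103 CPM. The count of 0 past 2-fold was the same without called doublets and in cells of 15000 to 40000 UMIs.

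The cycle lists were also counted cell by cell. With every cell thinned to 8000 UMIs, members held a median of 13 UMIs of the S phase list and 41 of the G2/M list (2 to 139). Non-cycling Myog-positive cells held 2 and 2, cycling Pax7-positive cells 16 and 44, and intermediate cells 4 and 6. The 90th percentile of the non-cycling cells was exceeded by 405 members in the G2/M list, by 314 in the S phase list and by 412 in either. Members were chosen by a Top2a minimum and non-cycling cells by the absence of Top2a and Mki67 UMIs. The rule thus favours these counts and the gap between the medians of these sets, and nothing is read from them. In 86 members (20.5%, 16.8 to 24.7) the S phase sum was the larger, and in 247 cycling Pax7-positive cells (24.8%, 22.2 to 27.7). In 45 members and 101 of those cells the sums lay within 5 UMIs of each other, so the division is not sharp.

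**Figure D2:**
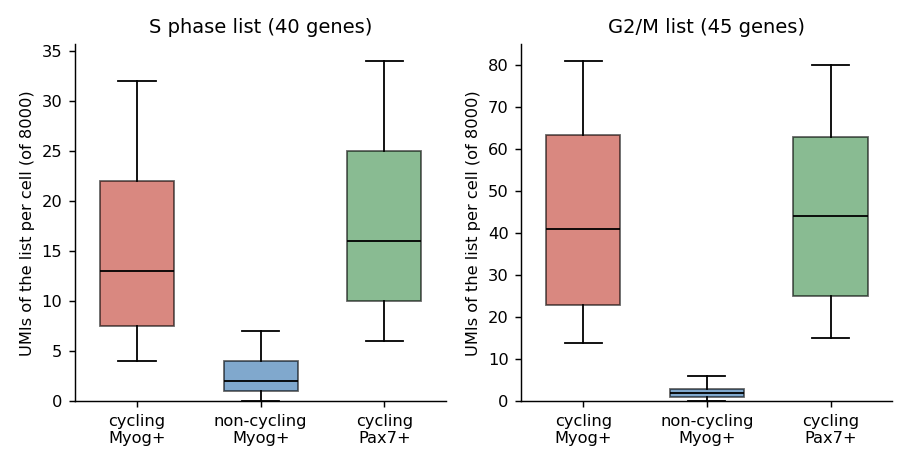
UMIs of the S phase list (left) and the G2/M list (right) per cell after thinning to 8000 UMIs, in 419 members, 799 non-cycling Myog-positive and 994 cycling Pax7-positive cells. Boxes span the quartiles with the median as a line and whiskers the 10th to 90th percentile, and the members' medians of 13 and 41 lie beside the 16 and 44 of the cycling Pax7-positive cells.

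The Cdk inhibitor genes Cdkn1c and Cdkn1a and the gene Rb1 were ordered otherwise than the cycle genes. Cdkn1c, the Cdk inhibitor p57, stood at 2596 CPM in members, 3358 CPM in non-cycling Myog-positive cells and 234 CPM in cycling Pax7-positive cells. The members' log2 ratios were -0.37 (-0.39 to -0.35) and 3.47 (3.43 to 3.51), so members lay far nearer to the non-cycling cells in this message. Cdkn1a, the inhibitor p21, stood at 771, 1130 and 351 CPM, and Cdkn1b, the inhibitor p27, at 48.4, 41.1 and 73.2 CPM. Rb1, which encodes the brake on the G1 to S step, stood at 81.4, 90.5 and 8.96 CPM. Its ratio to the cycling Pax7-positive cells was 3.18 (2.97 to 3.40).

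Among the G1 genes, Ccnd1 (cyclin D1) stood at 167 CPM in members, 95.6 CPM in non-cycling and 219 CPM in cycling Pax7-positive cells, between the sets. Ccnd2 did so too, at 49.2, 31.3 and 61.4 CPM. Ccnd3, the D cyclin of differentiating muscle, was at 482, 456 and 385 CPM, and its small excess over the non-cycling cells turned when the median ratio of all genes was set to 0. E2f2 and E2f8, an activating and a repressing E2F factor, were above both sets, E2f2 at 48.7, 24.9 and 18.0 CPM and E2f8 at 45.5, 32.6 and 18.6 CPM. Of 11 measured genes of the G1 and Rb list 2 were 2-fold or more higher than in the non-cycling cells (Cdk4 and E2f3) and 0 lower. Against the cycling Pax7-positive cells 3 of 12 were higher (Rb1, E2f2 and E2f8) and 0 lower. Of 13 measured inhibitor and exit genes, 0 were 2-fold or more higher and 1 lower (Gadd45a) in the first comparison, and 3 higher (Cdkn1c, Gadd45g and Cdkn1a) and 1 lower (Cdkn2b) in the second. The shares over all genes were 10.8% higher and 5.1% lower in the first comparison, and 4.42% and 4.55% in the second.

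Myod1, the myoblast determination factor, stood at 393 CPM in members, 291 CPM in non-cycling Myog-positive cells and 90 CPM in cycling Pax7-positive cells, so it was highest in members. Myf5, the regulator of early myoblasts, ran the other way between the sets, at 23.4, 10.8 and 79.7 CPM. Mef2c, a partner of myogenin, stood at 372, 949 and 59.8 CPM, and Mef2a at 428, 464 and 86.1 CPM. Myf6, the latest of the family, stood at 11.5, 30.1 and 6.63 CPM. Msc (musculin), a repressor of MyoD activity, had 5.67 CPM in members and 50.7 CPM in cycling Pax7-positive cells, and its ratio of -3.16 (-3.53 to -2.82) was the lowest of that comparison among genes of at least 50 CPM. Id3, an inhibitor of these factors' partners, stood at 515, 233 and 965 CPM. In all, 5 of 18 measured regulators were 2-fold or more higher and 2 lower than in non-cycling cells, and 4 were higher and 3 lower than in cycling Pax7-positive cells. The shares over all genes were 10.8% higher and 5.1% lower in the first comparison, and 4.42% and 4.55% in the second.

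**Figure D3:**
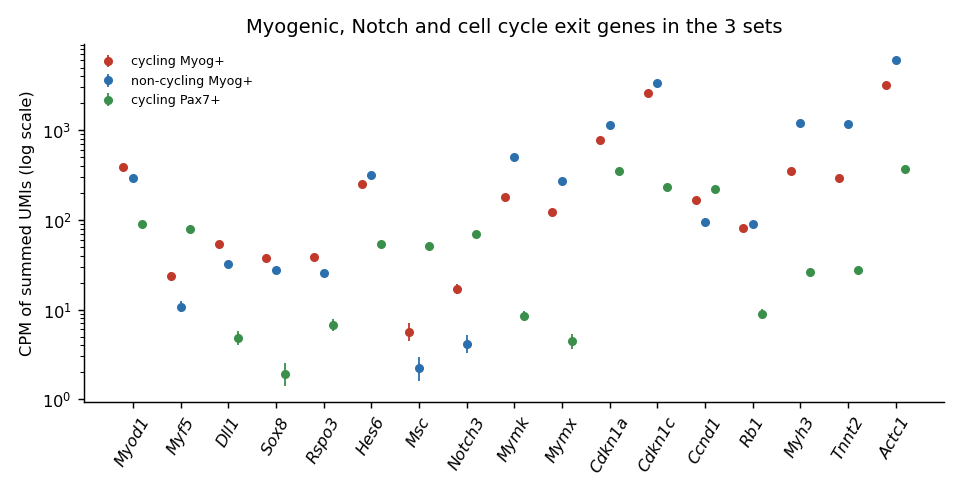
CPM of the UMIs summed over each set (y axis, log scale) for genes of the myogenic, Notch, fusion, cycle exit and sarcomere groups, with exact 95% Poisson intervals as bars where larger than the point. Red points (members) lie close to blue (non-cycling) for Cdkn1c and Rb1 and above both other sets for Myod1, Dll1, Sox8 and Rspo3.

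Dll1, Sox8 and Rspo3 are the genes that were proposed with this set, so their levels describe it. Dll1 (ENSMUSG00000014773, chromosome 17, 15367354 to 15376872) encodes a Notch ligand that a cell shows to its neighbours. It stood at 53.4 CPM in members (49.4 to 57.6), 32.4 CPM in non-cycling Myog-positive cells (29.9 to 35) and 4.83 CPM in cycling Pax7-positive cells (4.0 to 5.78). The log2 ratios were 0.72 (0.56 to 0.88) and 3.47 (3.18 to 3.76). Intermediate cells stood at 46.2 CPM, iMPC cells with at least 20 UMIs of the fibroblast gene Dcn at 5.85 CPM, and MEF at 0.144 CPM. The order was thus members, intermediate, non-cycling and then the cycling Pax7-positive and Dcn-high cells together.

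Sox8 (ENSMUSG00000024176, chromosome 17, 25565892 to 25570686), a transcription factor gene of the SoxE group, stood at 37.7 CPM in members (34.4 to 41.3), 27.7 CPM in non-cycling (25.4 to 30.1) and 1.92 CPM in cycling Pax7-positive cells (1.41 to 2.56). Its ratios were 0.45 (0.27 to 0.63) and 4.29 (3.86 to 4.76). Rspo3 (ENSMUSG00000019880, chromosome 10, 29452416 to 29535867), which encodes a secreted enhancer of Wnt signalling, stood at 38.5 CPM (35.2 to 42.1), 25.5 CPM (23.3 to 27.8) and 6.79 CPM (5.80 to 7.91). Its ratios were 0.60 (0.41 to 0.78) and 2.50 (2.25 to 2.77). For all 3 genes the step from cycling Pax7-positive cells to members was larger than that between members and non-cycling cells. Against the latter, 0 of the 3 passed 2-fold. Free RNA, measured in 48846 barcodes of 200 to 600 UMIs, would add 0.00364 UMIs of Dll1, 0.00172 of Sox8 and 0.00192 of Rspo3 to a droplet.

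The share of cells with a Dll1 UMI was 67.8% in members, 45.7% in non-cycling and 9.86% in cycling Pax7-positive cells. Thinned to 8000 UMIs, which removes the difference in depth and leaves out no cell of these sets, it was 33.4% (28.9 to 38.2), 24.5% (21.6 to 27.7) and 4.12% (2.98 to 5.55). The Dcn-high cells, at a median of 18872 UMIs, gave 2.88% thinned and 9.88% unthinned, near the cycling Pax7-positive cells. They are no blank, as 38.7% of them held a Myog UMI unthinned. In MEF the Dll1 share was 0.0372% thinned and 0.283% unthinned, below the cycling Pax7-positive cells. The thinned shares for Sox8 were 25.3%, 19.3% and 1.71%, over 2.47% in Dcn-high cells, and the unthinned ones 56.1%, 36.2%, 3.82% and 4.12%. For Rspo3 they were 24.6%, 15.5% and 4.23%, over 3.29%, and unthinned 44.9%, 28.3%, 10.7% and 7.0%. Intermediate cells, thinned, gave 32.3% (26.8 to 38.3) for Dll1, 24.5% (19.5 to 30.1) for Sox8 and 18.2% (13.8 to 23.4) for Rspo3. For Dll1 and Sox8 the intermediate cells were thus near the members at an even depth. In MEF, where 5383 cells could be thinned, at a median of 20159 UMIs before thinning, a Sox8 UMI was found in 0 cells, which allows a share of up to 0.0557% (3 counts of the cells), and a Rspo3 UMI in 1.60%.

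Single members differed in how many of the 3 messages they showed. Without thinning, 100 members (23.9%) held UMIs of all 3, 146 of 2, 115 of 1 and 58 (13.8%) of none. Among cycling Pax7-positive cells 3 held all 3 and 780 (78.5%) held none. All 3 were also held by 102 non-cycling Myog-positive cells (12.8%) and 37 intermediate cells (13.8%). None was held by 310 (38.8%) and 65 (24.2%) of these, so the combination was not particular to members. At 8000 UMIs per cell 18 members (4.30%) held all 3 and 175 (41.8%) none, so at an even depth the message counts of most members were low, and a cell without a UMI may still make the message.

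Within the set, levels moved with the Myog count. In members with 5 to 9, 10 to 19, 20 to 39, 40 to 79 and 80 or more Myog UMIs (81, 77, 128, 101 and 32 cells) Dll1 stood at 34.0, 48.1, 55.6, 57.3 and 73.9 CPM. Non-cycling cells of the same Myog counts stood at 27.8, 22.2, 35.2, 35.7 and 29.5 CPM. Members were higher in each of the 5 ranges, and the intervals did not overlap in the 4 ranges above 9 UMIs. Sox8 stood at 20.3 and 28.4 CPM in the lowest 2 ranges of members and at 47.6, 44.8 and 33.2 CPM in the others, against 27.1, 25.6, 34.5, 26.8 and 16.2 CPM in non-cycling cells. The intervals of the sets overlapped in the lowest 2 ranges and did not overlap in the upper 3. For both genes they reflect the UMIs counted and not the spread between cells, so overlap is no test. Rspo3 was lowest at 23.6 CPM in the range of 10 to 19 and highest at 47.9 CPM in the range of 40 to 79. Deeper cells hold more UMIs of any gene, and the members' median depth went from 22362 to 40748.5 UMIs over the ranges, so the ranges differ in depth as well.

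Mymk and Cdkn1c were higher in the upper ranges, which also differ in depth, and the G2/M list was about level. Mymk, which encodes the fusogen myomaker, stood at 46.1, 70.7, 162, 269 and 354 CPM in members and at 206, 397, 443, 568 and 725 CPM in non-cycling cells. Cdkn1c stood at 786, 1162, 2344, 4032 and 4393 CPM in members and at 1099, 1570, 3364, 4145 and 4231 CPM in non-cycling cells, so the sets met at the highest Myog counts. The G2/M list stood at 5273 CPM in the lowest range of members and 5908 CPM in the highest, while the S phase list stood at 2437 and 1102 CPM. Myf5 stood at 40.1 and 11.8 CPM and Ccnd1 at 207 and 115 CPM.

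**Figure D4:**
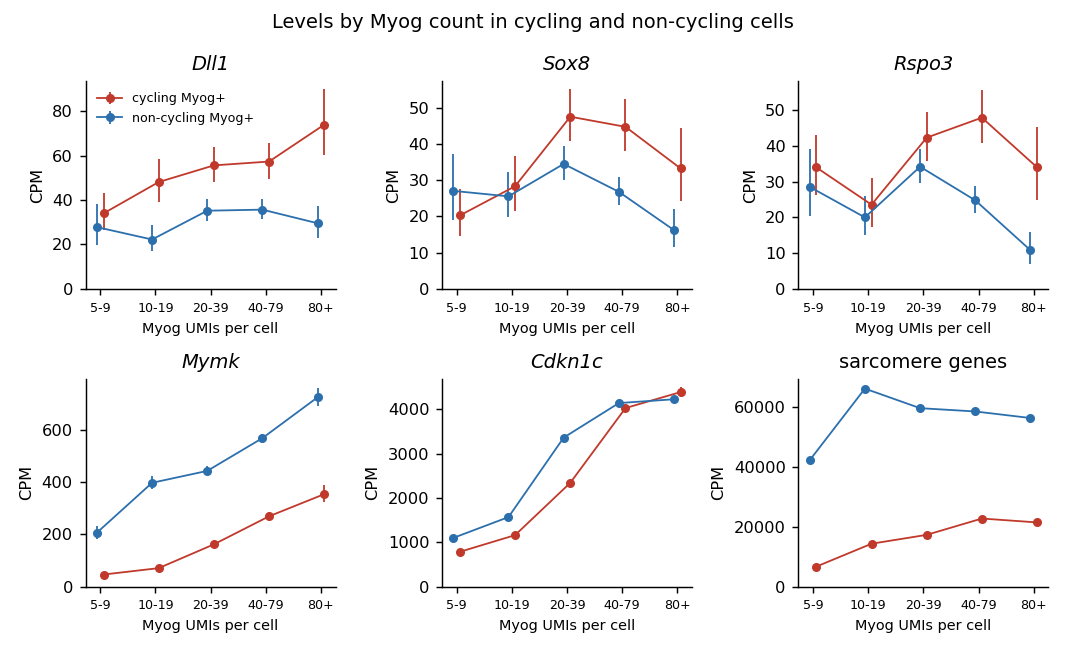
CPM (y axis) of Dll1, Sox8, Rspo3, Mymk, Cdkn1c and the sarcomere list in members (red) and non-cycling Myog-positive cells (blue) by range of Myog UMIs per cell (x axis), with exact 95% Poisson intervals. Dll1 lies higher in members in all 5 ranges, Mymk and the sarcomere list lie lower in all 5, and Cdkn1c meets at 80 or more Myog UMIs.

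Among iMPC cells within the Pax7 and Ckm limits, at least 3 Top2a UMIs were held by 26.9% of 2285 cells with no Myog UMI. The share was 36.8% of 1542 cells with 1 to 4, and 42.9%, 32.2%, 27.5%, 21.1% and 27.8% in the 5 Myog ranges from 5 to 9 upwards. These are genes of the rule, so the shares describe the cells chosen. The Pax7 limit leaves out other dividing cells, so the share with no Myog UMI is no baseline. After thinning to 8000 UMIs, with the Myog count taken after thinning too, the share was 23.0% of 2990 cells with none and 23.6% of 1138 cells with 1 to 4. It was 26.5% of 344 cells with 5 to 9, 19.3% of 528 cells with 10 to 19 and 8.14% (5.34 to 11.8) of 307 cells with 20 to 39. Without thinning the share was also lower at 40 to 79 Myog UMIs (17.6 to 25.1%) than at 5 to 9 (35.7 to 50.2%). A Mki67 UMI, unthinned, was held by 34.5% of cells with no Myog UMI, by 44.0% with 1 to 4, and by 48.1%, 36.8%, 32.0%, 24.7% and 24.3% in the 5 ranges. The 7 thinned cells above 39 UMIs were too few to describe.

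Sarcomere genes summed to 17145 CPM in members, 58648 CPM in non-cycling Myog-positive cells, 3460 CPM in cycling Pax7-positive cells and 34104 CPM in intermediate cells. Of 44 measured genes 40 were 2-fold or more lower than in non-cycling cells and 0 higher, with a median ratio of -1.96. Of 33 measured against cycling Pax7-positive cells 32 were 2-fold or more higher and 0 lower, with a median of 2.72. The 1 gene with the opposite direction in each was Tpm3, the tropomyosin that non-muscle cells also make, at 138, 81.3 and 196 CPM. Over all genes 5.1% were 2-fold or more lower in the first comparison and 4.42% higher in the second. Members needed Myog UMIs and cycling Pax7-positive cells had none, so the rule favours higher muscle genes in members there. The limit of 1 Ckm UMI is also stricter in deeper cells, as members were. Both points hold for the calcium handling and fusion genes below, so these counts are a description. Sarcomere messages are abundant in free RNA: Actc1 alone would add 2.04 UMIs to a droplet. With free RNA subtracted the second median was 3.57, and in cells of 15000 to 40000 UMIs it was 1.97, with 22 of 27 genes 2-fold or more higher.

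Actc1, the cardiac actin of early muscle, stood at 3201 CPM in members, 5989 CPM in non-cycling and 370 CPM in cycling Pax7-positive cells. Its ratio to the non-cycling cells, -0.90, was among the least negative of the list, with those of Tnnt1 and Smyd1. Myh3, the embryonic myosin heavy chain, stood at 348, 1188 and 26.2 CPM, and Tnnt2, a troponin of early muscle, at 291, 1179 and 27.8 CPM. Reads of the near-identical actin and myosin genes may have been assigned to the wrong copy. The gene furthest below the non-cycling cells was Mb. Its product is the oxygen store myoglobin, and it stood at 11.5 and 135 CPM, with the lowest ratio of all (-3.55, -3.80 to -3.31) among genes of at least 50 CPM. Casq1, the calcium store of fast fibres, stood at 15.5 and 127 CPM, and Ankrd2, a stretch-linked protein of the sarcomere, at 10.1 and 82.3 CPM. Fabp3, Fn3k, Cox8b, Adprhl1, Pgam2, Tmem37 and Smpx completed the lowest 10.

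In the calcium handling and excitation list 13 of 23 measured genes were 2-fold or more lower than in non-cycling cells and 0 higher, and 15 of 18 were higher than in cycling Pax7-positive cells and 0 lower. Over all genes 5.1% were lower and 10.8% higher in the first comparison, and 4.42% higher and 4.55% lower in the second. Of that list Sln and Dok7 were near the level of the non-cycling cells, while Chrng, the fetal acetylcholine receptor gene, was not, at 39.7 and 123 CPM. Sln, the calcium pump inhibitor sarcolipin, stood at 57.9 CPM in members, 66.4 CPM in non-cycling and 1.56 CPM in cycling Pax7-positive cells, the largest ratio of the second comparison (5.22, 4.75 to 5.73). Dok7, an adaptor of the nerve-muscle synapse, stood at 35.8, 37.2 and 1.80 CPM. Casz1, a zinc finger factor outside the lists, stood at 55.4, 70.2 and 1.51 CPM. In contrast Cav3, the muscle caveolin, stood at 57.4, 306 and 7.16 CPM.

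The fusogen genes Mymk and Mymx, whose products merge myoblast membranes, stood at 179 and 124 CPM in members, 501 and 273 CPM in non-cycling cells, and 8.51 and 4.42 CPM in cycling Pax7-positive cells. Their ratios to non-cycling cells were -1.48 and -1.14 and to cycling Pax7-positive cells 4.40 and 4.81. A Mymk UMI was found in 77.1% of members and 93.5% of non-cycling cells (58.5% and 88.1% thinned), over 6.24% of cycling Pax7-positive and 12.8% of Dcn-high cells thinned. Jam3, an adhesion molecule of myoblasts, stood at 141, 155 and 34.9 CPM, near the non-cycling level. Cd9 and Cd81, tetraspanins also made by many other cells, stood at 59.5, 41.1 and 125 CPM and at 343, 510 and 457 CPM. Tmem182, a regulator of fusion, stood at 11.0, 49.0 and 0.982 CPM, and Dock1, an exchange factor for Rac, at 22.6, 8.13 and 33.0 CPM. The list as a whole had 1 of 14 genes 2-fold or more higher and 3 lower than in non-cycling cells, and 4 higher and 2 lower than in cycling Pax7-positive cells. Among all genes 10.8% were higher and 5.1% lower in the former comparison, and 4.42% and 4.55% in the latter.

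Notch receptors and targets were ordered otherwise than the ligand gene Dll1. Notch3, a receptor of quiescent satellite cells, stood at 17.0 CPM in members, 4.14 CPM in non-cycling Myog-positive and 69.6 CPM in cycling Pax7-positive cells. The target genes Heyl and Hey1 stood at 9.34, 3.33 and 38.6 CPM and at 19.6, 5.81 and 57.0 CPM, and Hes1 at 53.1, 42.8 and 134 CPM. Notch1 stood at 77.2, 33.0 and 98.3 CPM. Rbpj, the DNA-binding partner of all Notch receptors, was highest in members, at 203, 153 and 95.9 CPM, and Hes6, which is induced in differentiation, stood at 253, 314 and 53.5 CPM. Of 12 measured Notch pathway genes 3 were 2-fold or more higher than in cycling Pax7-positive cells (Dll1, Hes6 and Rbpj) and 4 lower (Notch3, Heyl, Hey1 and Hes1). Against non-cycling cells 1 of 10 was higher, Notch1, and 2 were lower, Dlk1 and Neurl1a. In that comparison 10.8% of all genes were 2-fold or more higher, near the share of this list, and 5.1% lower. Against cycling Pax7-positive cells 4.42% of all genes were higher and 4.55% lower.

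In the Wnt and R-spondin list Rspo3 and the receptor gene Fzd2 were the 2 of 11 measured genes that were 2-fold or more higher than in cycling Pax7-positive cells. Fzd2 stood at 39.8 CPM in members and 15.7 CPM there. Fzd4, Tcf7l1 and Wnt5a were the 3 that were lower, with 11.7 and 42.3 CPM, 8.54 and 21.8 CPM, and 12.2 and 27.2 CPM. Of 9 measured genes 0 passed 2-fold against non-cycling cells, where 10.8% of all genes were higher and 5.1% lower. Against cycling Pax7-positive cells these shares were 4.42% and 4.55%. Of 17 Sox family genes 8 had no UMI in members, and of 5 measured against cycling Pax7-positive cells Sox8 was the 1 past 2-fold. Sox4 stood at 128, 85.7 and 244 CPM, Sox11 at 194, 168 and 116 CPM, and Sox9 at 41.5, 38.7 and 57.2 CPM in members, non-cycling and cycling Pax7-positive cells.

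Of the satellite cell genes, beside Pax7, which the rule held low, 8 of 20 measured were 2-fold or more lower than in cycling Pax7-positive cells and 1 was higher, with a median ratio of -0.31. Cav1, a caveolin of quiescent cells, stood at 66.5 CPM in members, 18.3 CPM in non-cycling and 191 CPM in cycling Pax7-positive cells. Fgfr4, a growth factor receptor of myoblasts, stood at 116, 46.2 and 106 CPM, level with the dividing Pax7-positive cells. Megf10, a receptor of activated satellite cells, was the 1 that was higher, at 28.6 CPM in members and 4.30 CPM in cycling Pax7-positive cells, and it reached 42.4 CPM in non-cycling cells. Against non-cycling cells 4 of 15 measured genes were 2-fold or more higher (Cav1, Fgfr4, Notch1 and Myf5) and 0 lower. That median, 0.18, equalled the median of all genes in the comparison. Beside these counts, 10.8% of all genes were 2-fold or more higher than in non-cycling cells and 5.1% lower. Against cycling Pax7-positive cells 4.42% of all genes were higher and 4.55% lower.

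Lists of genes of other cell types were read beside these results. The fibroblast list summed to 682 CPM in members, 313 CPM in non-cycling, 1619 CPM in cycling Pax7-positive and 8145 CPM in Dcn-high cells, with Mfap5 and Tcf21 at 0 in members. Dcn, which chose the Dcn-high cells, is itself a gene of the list, so their sum is partly set by that choice. Of 6 measured genes 5 were 2-fold or more higher than in non-cycling cells and 0 lower, and of 11 measured 8 were lower than in cycling Pax7-positive cells and 0 higher. Among all genes 10.8% were higher and 5.1% lower in the first comparison, and 4.55% lower and 4.42% higher in the second. Col3a1, a collagen, stood at 185, 82.2 and 519 CPM, and Col1a1, another, at 22.3, 3.49 and 32.4 CPM. Fap, Islr, Vcan, Mgp and Col5a1, genes of the matrix or its cells, were among the 10 lowest ratios to cycling Pax7-positive cells. The other 5 were Msc, Pde1a, Notch3, Eva1b and Tnfaip2. Endothelial and immune genes summed to 2.47 CPM in members, with 5 of 12 at 0 (Kdr, Tek, Emcn, Ptprc and Lyz2). Smooth muscle genes, several of which early muscle also makes, summed to 1748, 2388 and 1136 CPM, and glial and neuron genes to 186, 84.7 and 292 CPM, of which Stmn2 gave 97.4, 24.1 and 190 CPM. Epithelial, adipocyte and cartilage genes summed to 43.2, 40.2 and 59.8 CPM, with 6 of 14 at 0 in members (Epcam, Krt18, Krt14, Plin1, Acan and Col9a1). The part of these cell types in the results was not tested.

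Over the transcriptome members mostly lay between the comparison sets. Of 5067 genes measured in both comparisons 3092 (61.02%) had a level between those of the sets, 1360 were above both and 615 below both. On a line from 0 at the cycling Pax7-positive level to 1 at the non-cycling level, the 573 genes that were 2-fold or more higher in non-cycling cells had a median place of 0.347, and the 1185 that were higher in cycling Pax7-positive cells one of 0.445. Of the latter, the 80 cycle genes had a median of 0.153 (quartiles 0.0724 and 0.235), close to the dividing cells. The 11 satellite cell genes among them had one of 0.732 (0.626 to 0.824), close to the non-cycling ones. The rule favours both places, so nothing is read from them. Members and cycling Pax7-positive cells share the Top2a minimum, while members and non-cycling cells share the Pax7 limit.

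**Figure D5:**
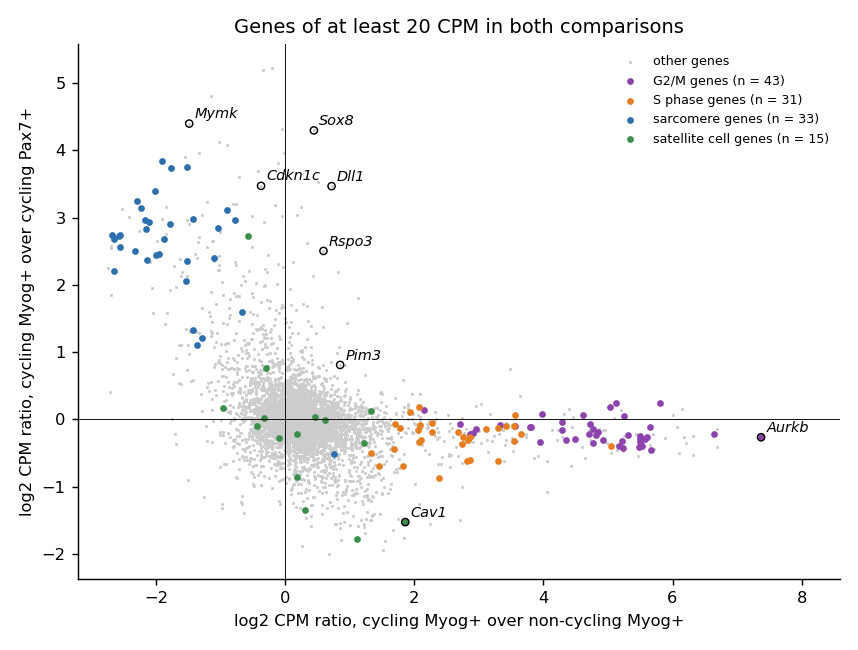
For each gene measured in both comparisons, the log2 CPM ratio of members over non-cycling Myog-positive cells (x axis) against that over cycling Pax7-positive cells (y axis), 1 point per gene. S phase and G2/M genes spread to the right along 0, sarcomere genes lie at the upper left with Tpm3 apart, and Dll1, Sox8, Rspo3 and Pim3 lie above 0 on both axes.

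At 20 CPM or more in members, 20 of 5018 genes (0.399%) were at least 1.5-fold above both, and 20 of 5787 (0.346%) at least 1.5-fold below both. The count above both was 33 without the highest 10% of doublet scores, 51 under combined limits added after seeing the data (called doublets left out, no Pax7 or Ckm UMI, 10 or more Myog UMIs) and 68 with the rule applied to thinned cells, and it ranged from 15 to 161 over all alternatives. The gene furthest above both among those of at least 50 CPM was Pim3, a survival kinase, at 66.5 CPM in members, 36.8 CPM in non-cycling and 37.9 CPM in cycling Pax7-positive cells, with ratios of 0.85 (0.71 to 1.0) and 0.81 (0.67 to 0.95). Traf4, a signalling adaptor, stood at 77.0, 43.9 and 38.6 CPM. Asf1b, a histone chaperone of replication, stood at 79.5, 7.12 and 47.0 CPM and Rangap1, which serves nuclear transport and the spindle, at 144, 40.5 and 96.0 CPM, so these cycle-linked genes exceeded even the cycling Pax7-positive cells. Dll1 came next in order after Asf1b. Brd3, which reads acetylated chromatin, stood at 108, 66.1 and 59.4 CPM, and Mthfd2, an enzyme of mitochondrial folate metabolism, at 197, 137 and 116 CPM. The remaining genes of the 15 named by rule were Sytl2, Olfm1, Car2, Ctps, Ralgps2, Cavin2, Tmem123 and Kmt5a.

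The values at the edges of the rule were as follows. The 25 members with 3 Top2a UMIs had a G2/M list level of 2461 CPM and a sarcomere level of 29557 CPM, and 60 cells just outside, with 2 Top2a UMIs, had 1707 and 25515 CPM. The 25 members with 5 Myog UMIs had Mymk at 22.6 CPM and Dll1 at 16.6 CPM. The 33 cells just outside, with 4 Myog UMIs, had 20.7 and 21.9 CPM. At the Pax7 limit, the 161 members with 1 Pax7 UMI had a sarcomere level of 16923 CPM and Myf5 at 35.1 CPM, and the 82 cells with 2 had 11418 and 54.1 CPM. At the Ckm limit, the 77 members with 1 Ckm UMI had a sarcomere level of 26956 CPM and Dll1 at 48.8 CPM, and the 17 cells with 2 had 36511 and 22.3 CPM.

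Members also differed by phase and by doublet call. The 86 members with more S phase than G2/M list UMIs stood at 697 CPM of Myog, 37.3 CPM of Dll1 and 1504 CPM of Cdkn1c. The other 333 stood at 1235, 57.2 and 2853 CPM. The latter were higher in all 3, of which Myog is a gene of the rule, beside a median depth of 28712 UMIs against 24394 UMIs. The 49 members without a Mki67 UMI held 2943 CPM of the G2/M list, 57.0 CPM of Dll1 and 3804 CPM of Cdkn1c. The 48 members called doublets, with a median of 39604.5 UMIs, held less of the marker genes than the 371 others, with 41.7 and 55.6 CPM of Dll1, 14.8 and 42.0 CPM of Sox8, and 19.3 and 42.1 CPM of Rspo3. They also held 3572 against 5717 CPM of the G2/M list and 1150 against 595.5 CPM of the fibroblast list.

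Without the called doublets, 371 members remained beside 776 and 967 cells. All 31 S phase and 43 G2/M genes measured against non-cycling cells were again 2-fold or more higher, 40 of 44 sarcomere genes were lower, and 32 of 33 were higher than in cycling Pax7-positive cells. The log2 ratios of members to non-cycling cells were then 0.75 for Dll1, 0.58 for Sox8 and 0.69 for Rspo3. In the 330 members, 590 non-cycling and 875 cycling Pax7-positive cells of 15000 to 40000 UMIs they were 0.52, 0.45 and 0.62.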

How the data were processed

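Single-cell RNA was measured in 1 iMPC and 1 MEF library. The values deposited are unnormalised UMI counts for each gene and listed barcode. They were made with Cell Ranger 4.0 on GRCm38.p6 per the submitters' processing notes, which also name Seurat 3.2.3 for unstated steps. Genes in both matrices (26100) were kept, and 25989 of them have a position in GENCODE M21. The iMPC matrix listed 6794880 barcodes, and those with at least 8036 UMIs (from 10% of the 99th percentile of the top 10000), 500 genes and at most 20% mitochondrial UMIs were kept, with 232728796 UMIs and a median of 20846. The MEF matrix listed 6113 barcodes, 6013 were kept under the same gene and mitochondrial limits, and their median was 18986 UMIs. All 6113 held a UMI, against 2707590 of those listed for iMPC, and no UMI minimum was set for MEF. Cells of the libraries were thus chosen in different ways. The libraries shared 16 kept barcodes, of which 0 were members. Doublets were scored with Scrublet in scanpy, which called 377 iMPC cells (4.03%); they were kept in the main results.

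UMIs were summed per set. Levels have exact Poisson, ratios exact conditional and shares exact Clopper-Pearson intervals at 95%, for counting error only; a gene at 0 in 1 set was given 3 counts. Cells were thinned without replacement. The calculations were tested on simulated counts. Cells of 1 culture are not replicates, so no test across samples was possible. The members, the gene lists and the rule for named genes were chosen with earlier results of these data known. Named were the genes of the rule and its markers, 13 fixed genes, the 10 largest ratios each way in each comparison at 50 CPM or more, the 15 genes furthest above both sets, and up to 4 genes each way per list. Genes named as at 0 in a marker list were chosen after their values were seen. Alternatives covered the rule's limits, doublets, depth, scaling, free RNA and the filter on low values. Python 3.11.15, numpy 2.4.6, scipy 1.17.1, pandas 2.3.3 and scanpy 1.11.5 were used.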

Additional observations from a re-analysis of the deposited data

How the results depend on the processing

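The number of members was 334 without the highest 10% of doublet scores, 365 at 5 or more Top2a UMIs, 370 with a Mki67 UMI required, 338 at 10 or more Myog UMIs, 213 at 0 UMIs of Pax7 and Ckm, and 286 when counted in cells thinned to 8000 UMIs. Against non-cycling cells the sarcomere median was -2.29 at 0 Pax7 and Ckm UMIs, -2.49 in cells of 15000 to 40000 UMIs and -2.29 under combined limits added after seeing the data (doublets out, 0 Pax7 and Ckm, 10 or more Myog), and the S phase median was 2.44 at 0 Pax7 and Ckm UMIs. The satellite cell median was 0.10 without the highest doublet scores, 0.10 at 0 Pax7 and Ckm UMIs, 0.13 at 10 or more Myog UMIs, 0.0653 scaled by the median of gene ratios (a shift of -0.12 for every gene), 0.36 without mitochondrial and ribosomal genes in the total, 0.72 at 10 CPM or more, 0.78 at 10 UMIs or more, 0.0181 under the combined limits and 0.0401 with the rule applied to thinned cells, which was also added after seeing the data. Against cycling Pax7-positive cells the G2/M median was -0.12 without the highest doublet scores, -0.11 in cells of 15000 to 40000 UMIs, -0.11 under the combined limits and -0.11 in thinned cells. The sarcomere median there was 2.61 without called doublets, 2.51 without the highest scores, 2.33 at 0 Pax7 and Ckm UMIs, 2.92 at 10 or more Myog UMIs, 1.97 in cells of 15000 to 40000 UMIs, 2.25 as a mean of each cell's own CPM, 3.57 with free RNA subtracted, 2.44 under the combined limits and 2.27 in thinned cells. The satellite cell median was -0.53 without mitochondrial and ribosomal genes and -0.52 at 10 UMIs or more. Genes past 2-fold numbered 3019 against non-cycling cells at 10 UMIs or more (852 as reported), and against cycling Pax7-positive cells 792 at 10 CPM or more and 2382 at 10 UMIs or more (499 as reported); more genes at low counts enter there. Genes 1.5-fold above both sets numbered 33 without the highest doublet scores, 31 at 0 Pax7 and Ckm UMIs, 38 at 10 CPM or more, 161 at 10 UMIs or more, 51 under the combined limits and 68 in thinned cells. The cause of the other shifts was not tested. The other 135 values of counts and medians moved by less than their spread, and 0 reversed. The single genes followed were Dll1, Sox8, Rspo3, Mymk, Cdkn1c, Myod1, Myf5, Ccnd1, Pim3, Traf4 and Asf1b. For these 205 values held and 81 moved, with 0 reversed. Other named genes were not counted, and the small excess of Ccnd3 did turn, as given above. The ratio of members to non-cycling cells ranged from 0.52 to 1.12 for Dll1, 0.15 to 0.97 for Sox8 and 0.32 to 0.93 for Rspo3.

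With 1 library of each culture, no value shows how the set would vary between cultures. No paired analysis was possible because each group holds 1 sample. Membership rests on single messages in single cells, so depth sets which cells reach it. Genes under about 5 CPM in a set rest on few UMIs.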

Other observations

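Stress and dissociation genes summed to 4143 CPM in members, 4011 CPM in non-cycling Myog-positive and 4022 CPM in cycling Pax7-positive cells. Of 14 measured genes 0 were 2-fold or more higher and 2 lower than in non-cycling cells, Hspb1 at 231 and 642 CPM and Atf3 at 15.1 and 39.4 CPM. The shares over all genes were 10.8% higher and 5.1% lower. Hspb1 encodes a small heat shock protein that muscle also makes as it matures. The immediate early genes Fos and Ier2 stood at 38.0 and 73.3 CPM in members and at 75.1 and 135 CPM in cycling Pax7-positive cells.

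Dlk1, an imprinted gene that encodes a Notch-like membrane protein, was lower in members than in both other sets, at 110 CPM against 355 CPM in non-cycling and 142 CPM in cycling Pax7-positive cells. Acta2, the smooth muscle actin that early muscle cells also make, stood at 882 CPM in members, 849 CPM in non-cycling and 340 CPM in cycling Pax7-positive cells.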
